A study of Mus musculus with 6 samples.

Results

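The genes described here encode subunits of respiratory complex I, the NADH:ubiquinone oxidoreductase of the inner mitochondrial membrane. They were taken from the array table by name, as the genes whose symbol begins with Ndufa, Ndufb, Ndufc, Ndufs or Ndufv followed by a number, together with Ndufab1 and without the Ndufaf assembly factors. 36 of the 19933 named genes of the table met this rule. The values did not enter the choice by name, but the group was proposed with earlier results of these arrays known. The samples were heart RNA from mouse embryos at E12.5, with 3 hearts labelled wild type and 3 labelled knockout for β1 integrin (Itgb1), 1 Affymetrix Mouse Gene 1.0 ST array each. No further allele, strain or agent is given for either group, nor the Cre line, promoter or cell type of the deletion, nor whether a sample pooled several embryos. All values below are RMA signals on the log2 scale, and a difference is knockout minus wild type on that scale with its moderated standard error (SE) from limma.

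Complex I takes electrons from NADH and passes them through a flavin and a chain of iron-sulphur clusters to ubiquinone, and it couples this to proton pumping across the membrane. It has an L shape. The matrix arm holds the catalytic core subunits that carry the redox centres, and the membrane arm holds the proton pumps, which are encoded by mitochondrial DNA. Nuclear-encoded accessory subunits surround both arms, and assembly factors build the complex without staying in it. The heart depends on oxidative phosphorylation after birth, and mitochondria of the embryonic heart mature during gestation. 2 of the 36 genes carry a complex I name without being settled subunits: Ndufa4 encodes a protein since placed with cytochrome c oxidase, and Ndufa4l2 is its paralog, known as a gene induced by low oxygen.

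The whole table showed little separation between the groups. Itgb1 itself read 11.76, 11.80 and 11.78 across wild-type hearts 1 to 3 and 11.53, 11.42 and 11.65 across knockout hearts 1 to 3, a difference of -0.25 ± 0.09 (SE). The probe positions are not known here, and probes outside the deleted stretch would check nothing. Cardiomyocyte markers were bright in every heart, with means of 16 genes between 12.43 and 12.61. Of 28767 transcript clusters, 0 (0%) had a limma adjusted p under 0.05, while 825 lower and 880 higher clusters had an unadjusted p under 0.05. Precision is limited by having 3 arrays a group, and the median SE of a member was 0.11.

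Most complex I genes had a slightly lower mean signal in the knockout. 33 of the 36 members had a lower mean and 3 a higher one, against 53.5% lower among all clusters and 57.2% among those at or above the median level, where all 36 members lie. The median difference of the members was -0.12, against -0.01 over all clusters. 10 members were lower by over 0.2, 11 by 0.1 to 0.2 and 12 by under 0.1, and the most negative difference, that of Ndufb7, left 81.1% of the wild-type signal. None of the 36 passed limma's test, with a smallest Benjamini-Hochberg adjusted p of 0.797. At an unadjusted p under 0.05 there were 4 members, all lower (Ndufb10, Ndufv1, Ndufb7 and Ndufb9), against 2.87% of all clusters and 2.58% of those at or above the median level on the lower side. No member had such a p on the higher side, against 3.06% and 2.02%. With 1 heart left out, the count on the lower side ran from 0 to 7. Shares over all clusters were not computed for those sets. In bulk RNA, fewer cells that express a gene and less RNA per cell cannot be told apart.

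**Figure D1:**
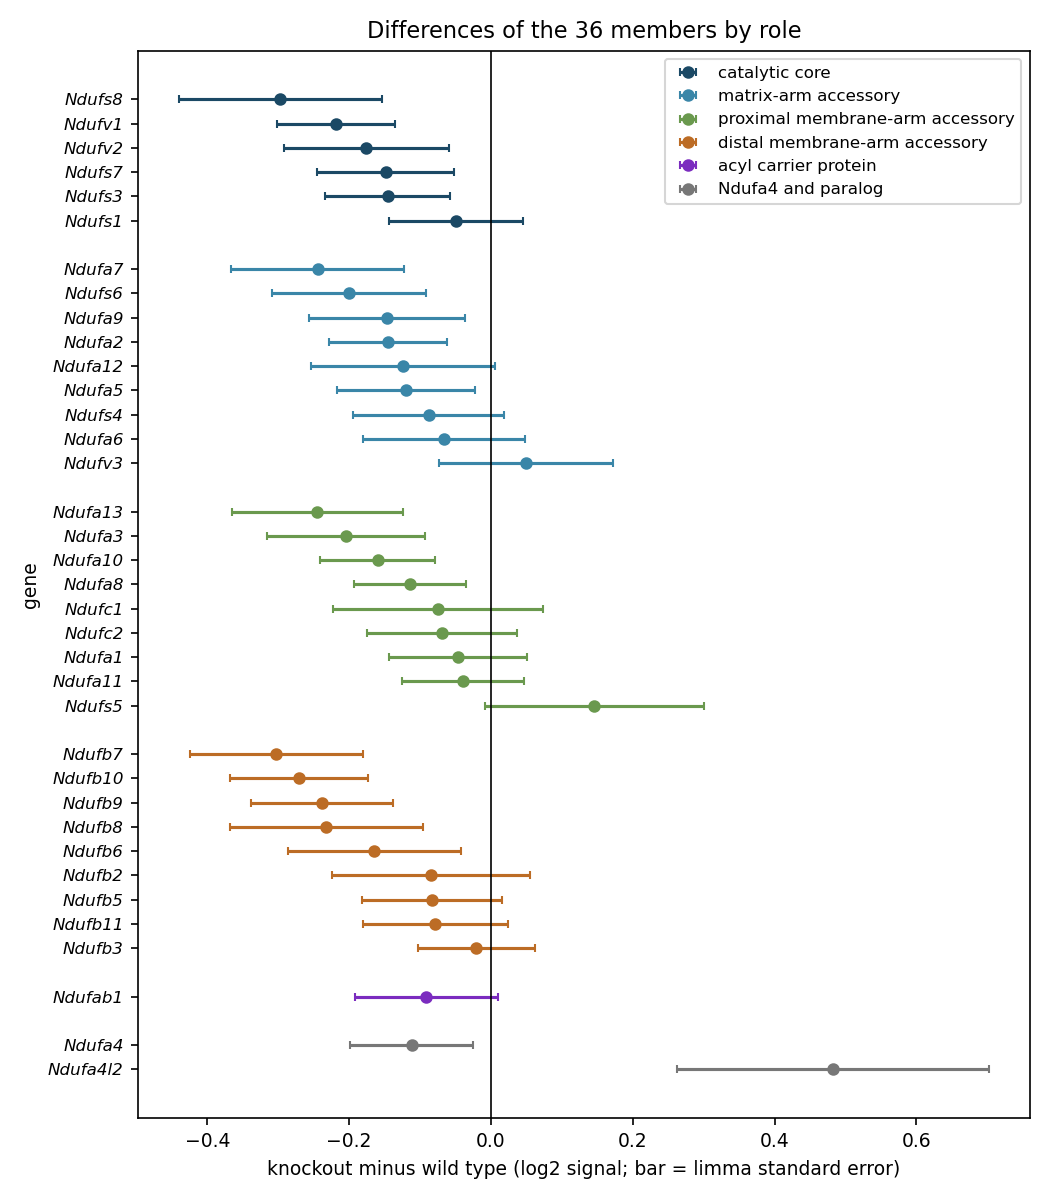
Difference of each of the 36 members (horizontal axis, knockout minus wild type, log2 signal), grouped by the part of complex I it belongs to; points are limma estimates and bars are 1 SE. 33 points lie left of 0, and Ndufs5, Ndufv3 and Ndufa4l2 lie right of it, of which Ndufs5 and Ndufv3 turn below 0 with array weights.

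The catalytic core was described through 6 nuclear-encoded subunits. All 6 were lower by their means, with a median of -0.16. 2 of them (33.3%) had no overlap between the groups' hearts, against 6.61% of all clusters and 7.99% of those at or above the median level. Ndufv1 binds NADH and the flavin at the tip of the matrix arm. Its signal was 11.25, 11.25 and 11.12 across wild-type hearts 1 to 3 and 10.99, 10.94 and 11.02 across knockout hearts 1 to 3. Every knockout heart lay below every wild-type heart, at means of 11.20 ± 0.08 (SD, n = 3) against 10.99 ± 0.04 (SD, n = 3), with an exact two-sided permutation p of 0.1 (no smaller p is possible for 3 hearts against 3). Its difference was -0.22 ± 0.08 (SE; limma adjusted p = 0.797), and ranged from -0.26 to -0.20 when 1 heart was left out.

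Ndufs7 and Ndufs8 carry iron-sulphur clusters next to the ubiquinone site. Ndufs7 stood at 10.95, 10.95 and 10.88 across the wild-type hearts and 10.62, 10.87 and 10.85 across the knockout hearts, with no overlap, although knockout replicates 2 and 3 lay just under wild-type replicate 3. Ndufs8 had the largest core difference, -0.30 ± 0.14 (SE), with 9.86, 9.80 and 9.64 across the wild-type hearts and 9.19, 9.72 and 9.51 across the knockout hearts. Knockout replicate 2 lay above wild-type replicate 3, so the groups overlapped. Without knockout replicate 1 the Ndufs8 difference was -0.15 and that of Ndufs7 -0.07.

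The other core genes overlapped between the groups. Ndufs3, a subunit of the ubiquinone module, was 11.83, 11.83 and 11.69 across the wild-type hearts and 11.55, 11.69 and 11.67 across the knockout hearts, so that knockout replicate 2 and wild-type replicate 3 were level. Ndufv2, the partner of Ndufv1 in the NADH-oxidising module, was 10.70, 10.78 and 10.47 across the wild-type hearts and 10.33, 10.51 and 10.59 across the knockout hearts. Ndufs1, the largest core subunit, showed the smallest difference, -0.05 ± 0.09 (SE), with 11.71, 11.71 and 11.52 across the wild-type hearts and 11.51, 11.59 and 11.68 across the knockout hearts. In Ndufv2 and Ndufs1 alike, wild-type replicate 3 lay below 2 knockout hearts.

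Accessory subunits of the matrix arm were lower in 8 of 9 cases, with a median of -0.12. Only 1, Ndufa2, had no overlap (11.1%, against 6.61% of all clusters and 7.99% of those at or above the median level). Ndufa2 has a thioredoxin-like fold; it stood at 9.48, 9.36 and 9.40 across the wild-type hearts and 9.27, 9.33 and 9.21 across the knockout hearts, a difference of -0.15 ± 0.08 (SE). Ndufs6, a zinc-binding subunit needed late in assembly, was 9.92, 9.94 and 9.77 across the wild-type hearts and 9.53, 9.85 and 9.65 across the knockout hearts, and only knockout replicate 2 reached into the wild-type range. Ndufa7 was dim among the members, at 7.80, 7.75 and 7.75 across the wild-type hearts and 7.34, 7.78 and 7.45 across the knockout hearts. In Ndufa7 the wild-type hearts spread over 0.05 while knockout replicate 2 stood among them. The remaining matrix-arm genes were Ndufa9 (-0.15), Ndufa12 (-0.12), Ndufa5 (-0.12), Ndufs4 (-0.09), Ndufa6 (-0.07) and Ndufv3 (0.05), and all 6 overlapped.

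In the membrane arm, the distal accessory subunits were lower in 9 of 9 cases, with a median of -0.16. 3 of them (33.3%), Ndufb10, Ndufb7 and Ndufb9, had no overlap, against the same 6.61% and 7.99%. Ndufb10, an accessory subunit on the intermembrane side, had the lowest p of all members. It was 7.93, 7.79 and 7.64 across the wild-type hearts and 7.52, 7.48 and 7.54 across the knockout hearts. Like Ndufa7, it was dim among the members, at a mean level of 7.65. The knockout hearts of Ndufb10 spread over 0.06 and the wild-type hearts over 0.29. Its difference was -0.27 ± 0.10 (SE; limma adjusted p = 0.797) and stayed between -0.34 and -0.20 when a heart was left out. Ndufb9, a LYR-family protein that binds the mitochondrial acyl carrier protein, stood at 10.14, 10.17 and 10.002 across the wild-type hearts and 9.72, 9.97 and 9.91 across the knockout hearts. Here the gap between the lowest wild-type and the highest knockout heart was narrow, and knockout replicate 1 was farthest down.

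Ndufb7, which carries paired cysteine motifs and faces the intermembrane space, had the most negative difference of the 36 members, -0.30 ± 0.12 (SE). Its values were 10.37, 10.38 and 10.30 across the wild-type hearts and 9.79, 10.23 and 10.13 across the knockout hearts. Knockout replicate 1 stood apart, and without it the Ndufb7 difference was -0.17. Ndufb8 was 9.73, 9.66 and 9.29 across the wild-type hearts and 9.17, 9.45 and 9.36 across the knockout hearts, so wild-type replicate 3 lay below 2 of the knockout hearts. The other distal genes, Ndufb6 (-0.16), Ndufb2 (-0.08), Ndufb5 (-0.08), Ndufb11 (-0.08) and Ndufb3 (-0.02), overlapped. Ndufb4 and its copy Ndufb4b share 2 clusters that the rule leaves out, and these differed by -0.19 ± 0.11 and -0.18 ± 0.11 (SE).

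Of the 9 proximal membrane-arm subunits 8 were lower, with a median of -0.07. Ndufa10 and Ndufa8 (22.2%) had no overlap, against the same 6.61% and 7.99%. Differences between the parts of the complex were not tested. Ndufa10, which resembles nucleoside kinases, was 11.63, 11.59 and 11.55 across the wild-type hearts and 11.36, 11.48 and 11.45 across the knockout hearts. Its difference of -0.16 ± 0.08 (SE) ranged from -0.19 to -0.12 when a heart was left out. Ndufa13, also known as the cell death gene GRIM-19, stood at 9.67, 9.64 and 9.42 across the wild-type hearts and 9.13, 9.50 and 9.36 across the knockout hearts, with knockout replicate 2 above wild-type replicate 3. Ndufa3, a small single-pass subunit, was 10.12, 10.14 and 10.06 across the wild-type hearts and 9.74, 10.11 and 9.86 across the knockout hearts. Knockout replicate 2 was again the heart that met the wild-type range.

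Ndufa8, the other proximal gene without overlap, differed by -0.11. Ndufc1 differed by -0.07, Ndufc2 by -0.07, Ndufa1 by -0.05 and Ndufa11 by -0.04. Ndufs5 had a higher mean in the knockout, by 0.15 ± 0.155 (SE), through 1 heart: it was 8.997, 8.98 and 8.84 across the wild-type hearts and 8.95, 8.87 and 9.44 across knockout hearts 1 to 3. Without knockout replicate 3 its difference was -0.03, and with array weights it was also below 0. A cluster shared by Ndufs5 and its pseudogene Ndufs5-ps differed by -0.12 ± 0.13 (SE). Ndufa11 also had unlike clusters, -0.04 ± 0.09 for the brighter one that stands for the gene and -0.27 ± 0.11 (SE) for the dimmer one, which may read a near-identical copy. The 4 other members with 2 clusters, Ndufab1, Ndufb11, Ndufc1 and Ndufs3, had the same sign in both. Probe positions are not known here, so either cluster of these 4 genes may read a near-identical copy.

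Ndufab1 encodes the mitochondrial acyl carrier protein, which sits in both arms of complex I and also serves mitochondrial fatty acid and lipoate synthesis. It was 10.37, 10.45 and 10.24 across the wild-type hearts and 10.12, 10.33 and 10.34 across the knockout hearts, a difference of -0.09 ± 0.10 (SE) with overlap. Ndufa4 was the brightest of the 36 genes, at 12.48, 12.51 and 12.37 across the wild-type hearts and 12.27, 12.42 and 12.34 across the knockout hearts. Knockout replicate 2 of Ndufa4 lay above wild-type replicate 3, and the difference was -0.11 ± 0.09 (SE).

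Its paralog Ndufa4l2 was the dimmest gene of the group and went the other way. It stood at 6.84, 6.81 and 7.04 across the wild-type hearts and 7.88, 6.93 and 7.33 across the knockout hearts, a 1.40-fold higher mean. The difference of 0.48 ± 0.22 (SE; limma adjusted p = 0.797) was the largest of the 36 in either direction. Knockout replicate 2 lay below wild-type replicate 3, the exact permutation p was 0.2, and without knockout replicate 1 the difference was 0.23. Genes of the response to low oxygen, a list to which Ndufa4l2 does not contribute, were higher by their means in 18 of 18 cases, with medians of 1.43, 0.24 and 0.18 above the wild-type mean in knockout replicates 1, 2 and 3. In Ndufa4l2, knockout replicate 3 exceeded replicate 2. The part of the low-oxygen response in these values was not tested.

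**Figure D2:**
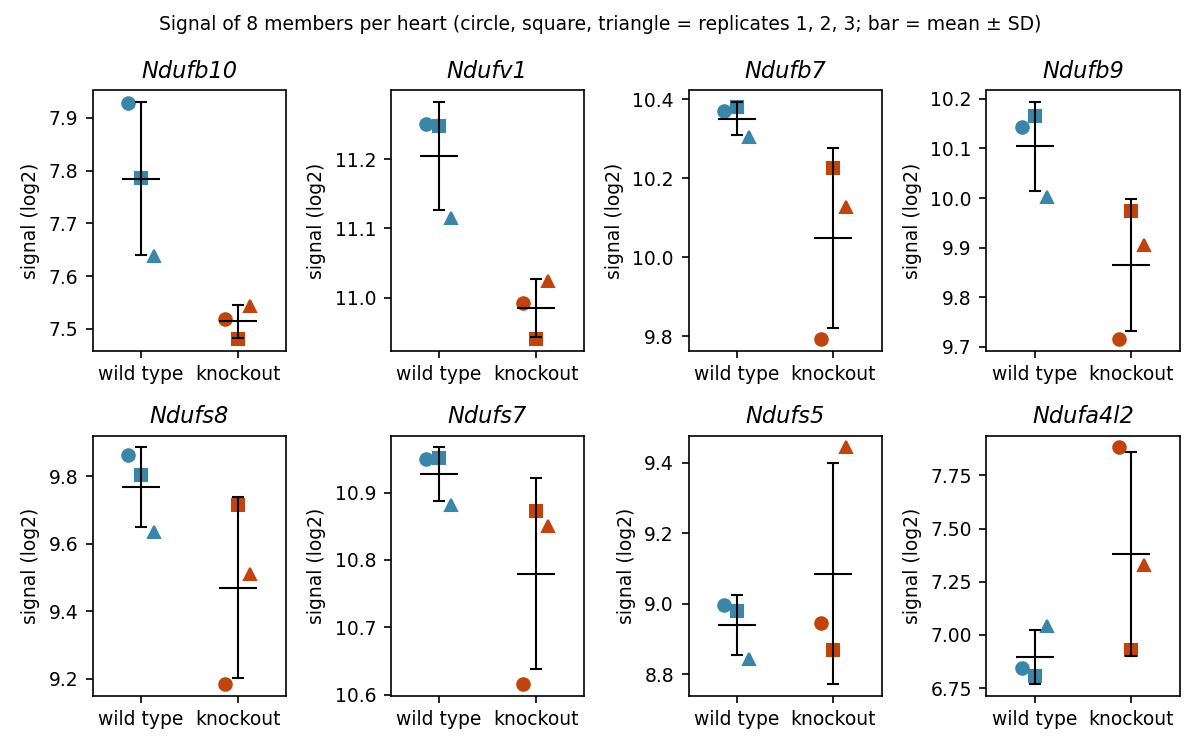
RMA signal (log2, vertical axis, a separate range for each gene) of 8 members in the 3 wild-type and 3 knockout hearts; symbols mark replicates 1 to 3, and bars show mean ± SD. Ndufb10, Ndufv1, Ndufb7, Ndufb9 and Ndufs7 show no overlap, Ndufs8 overlaps, and the knockout hearts above all wild-type hearts are 1 for Ndufs5 and 2 for Ndufa4l2.

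8 of the 36 members, or 22.2%, had all 3 knockout hearts below all 3 wild-type hearts, against 6.61% of all clusters and 7.99% of those at or above the median level. No member had the knockout hearts wholly above, against 6.01% of all clusters and 5.76% of those at or above the median level. The count of 8 turned on 2 hearts. It was 25 with wild-type replicate 3 left out, where 12.7% of all clusters and 16.8% of those at or above the median level did not overlap on the lower side. It was 17 with knockout replicate 2 left out, where these shares were 13% and 14.6%. With fewer hearts, groups overlap less often for any gene. Wild-type replicate 3 was the lowest wild-type heart for 30 of the 36 members. Its median over the members was -0.10 from the wild-type mean, close to that of knockout replicate 3 (-0.10) and below that of knockout replicate 2 (-0.07).

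Knockout replicate 1 was the lowest of the 6 hearts for 24 members, with a median of -0.23. Without it, 30 of the 36 members had a lower mean, the median difference was -0.10, and 23 single differences shrank by over 1.5 times or changed sign. In the full set, for 21 members each of the 3 knockout hearts lay below the wild-type mean. Shares over all clusters were not computed for this count, nor for the lowest-heart counts of knockout replicate 1 and wild-type replicate 3. The medians of wild-type replicates 1 and 2 were 0.05 and 0.04 above the wild-type mean.

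**Figure D3:**
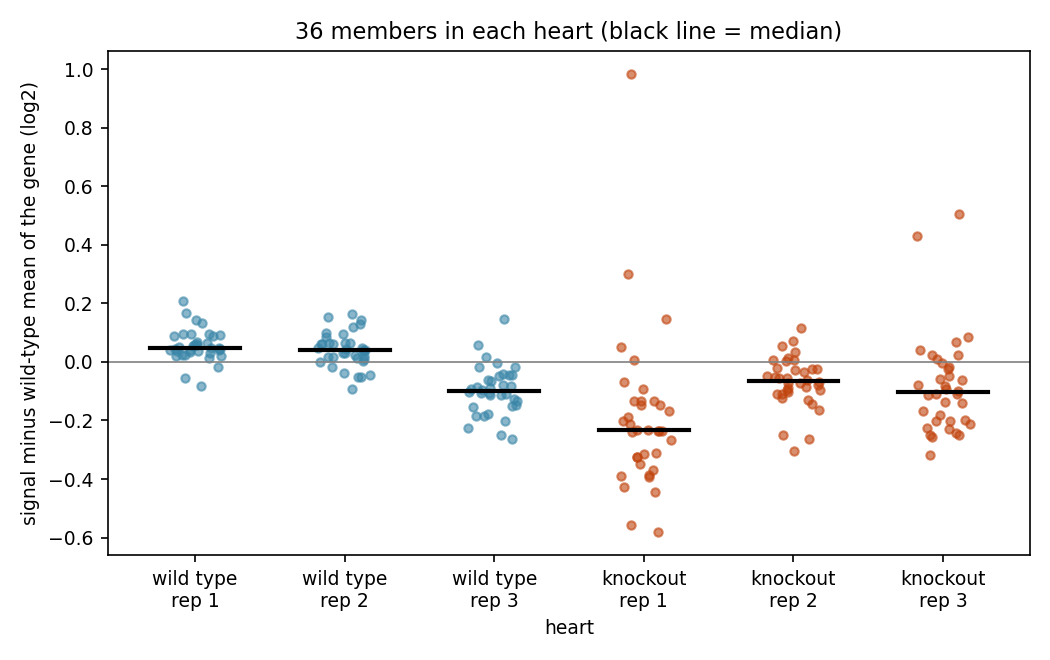
Each of the 36 members in each heart (horizontal axis), as its signal minus the wild-type mean of that gene (vertical axis, log2); black lines are medians. Knockout replicate 1 is lowest at -0.23, and wild-type replicate 3 (-0.10) lies close to knockout replicates 2 and 3.

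Other markers also set these hearts apart. In knockout replicate 1 the median of 9 erythroid markers stood 0.94 above the wild-type mean, while knockout replicates 2 and 3 were at -0.10 and -0.07, and the mean level of these markers ranged from 8.90 to 9.26 in wild-type and from 9.03 to 10.22 in knockout hearts. The 18 low-oxygen genes stood 1.43 above the wild-type mean in the same heart. Wild-type replicate 3 had the highest mesenchyme, cushion and epicardium markers of the wild-type hearts, with a median of 0.26 over 10 genes, against 0.01 and -0.28 in the others, and knockout replicate 3 stood at 0.68. Cardiomyocyte markers were lower by their means for 13 of 16 genes, with a median difference of -0.08, and lay at -0.14, -0.01 and -0.08 in knockout replicates 1 to 3. Macrophage markers had a higher mean for 11 of 12 genes (median 0.19) and liver markers for 7 of 8 (0.26). Liver markers were dim, with a median level of 5.83, and macrophage markers stood at 6.89, against 6.67 over all clusters. Endothelial and endocardial markers had a lower mean for 7 of 10 genes (-0.12). The part of these cell populations in the complex I differences was not tested.

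Most genes of the other mitochondrial lists also had a lower mean, with list medians from -0.17 to -0.03. Of 18 complex I assembly factors 16 were measured, and all 16 had a lower mean in the knockout, with a median of -0.17; 0 passed limma's test (smallest adjusted p = 0.797), 2 had an unadjusted p under 0.05, against 2.87% of all clusters on the lower side, and 4 had no overlap, against 6.61%. Nubpl, which delivers iron-sulphur clusters to complex I, was 6.10, 6.13 and 6.33 across the wild-type hearts and 5.80, 5.90 and 6.02 across the knockout hearts. Ndufaf3, a factor for the ubiquinone module, was 8.26, 8.29 and 8.19 across the wild-type hearts and 7.82, 8.15 and 8.03 across the knockout hearts. Neither gene overlapped between the groups. Tmem186 differed by -0.21 ± 0.10 (SE), also without overlap, while Ndufaf1, which helps to build the membrane arm, differed by -0.32 ± 0.14 (SE) with overlap.

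Subunits of complexes II to V were lower in 40 of 41 cases, with a median of -0.13 and 10 without overlap (6.61% of all clusters, 7.99% of those at or above the median level), beside 33 of 36, -0.12 and 8 for complex I; the difference between the lists was not tested. Sdhb, the iron-sulphur subunit of succinate dehydrogenase, was 10.57, 10.66 and 10.53 across the wild-type hearts and 9.98, 10.36 and 10.15 across the knockout hearts, further down than any complex I gene. Atp5j2, a subunit of ATP synthase, differed by -0.24 ± 0.10 (SE), Cox5b of cytochrome c oxidase by -0.19 ± 0.09 and Uqcr10 of complex III by -0.18 ± 0.09. Of the subunits encoded by mitochondrial DNA, only ND3 was matched to a cluster, at 12.56, 12.54 and 12.40 across the wild-type hearts and 12.24, 12.38 and 12.57 across the knockout hearts, with overlap.

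Import, carrier and matrix genes of mitochondria were lower in 13 of 15 cases, with a median of -0.08 and 4 without overlap, against the same 6.61% and 7.99%. The prohibitin gene Phb2 differed by -0.16 ± 0.08 (SE), the adenine nucleotide carrier gene Slc25a5 by -0.17 ± 0.09, and the import genes Tomm40 and Tomm22 by -0.17 ± 0.10 and -0.18 ± 0.10. Regulators of mitochondrial gene expression were lower in 11 of 15 cases and close to level as a list, with a median of -0.03 that was 0.02 without knockout replicate 1. Only 1 of the 15 regulators (6.67%) had no overlap, against 6.61% of all clusters. This was Esrra, a nuclear receptor that activates oxidative metabolism genes. Esrra stood at 8.68, 8.54 and 8.58 across the wild-type hearts and 8.396, 8.50 and 8.19 across the knockout hearts. Its coactivator gene Ppargc1a was 9.999, 9.99 and 9.83 across the wild-type hearts and 10.42, 10.01 and 9.90 across the knockout hearts, with knockout replicate 1 highest. Polrmt, the mitochondrial RNA polymerase gene, differed by -0.13 ± 0.10 (SE) and Ppara by 0.11 ± 0.09. None of these lists had a member past limma's adjusted p of 0.05. At an unadjusted limma p under 0.05 there were 2 genes of complexes II to V, both lower, and 0 of the import and regulator lists. The 2 genes are 4.88% of their list, against 2.87% of all clusters and 2.58% of those at or above the median level on the lower side.

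**Figure D4:**
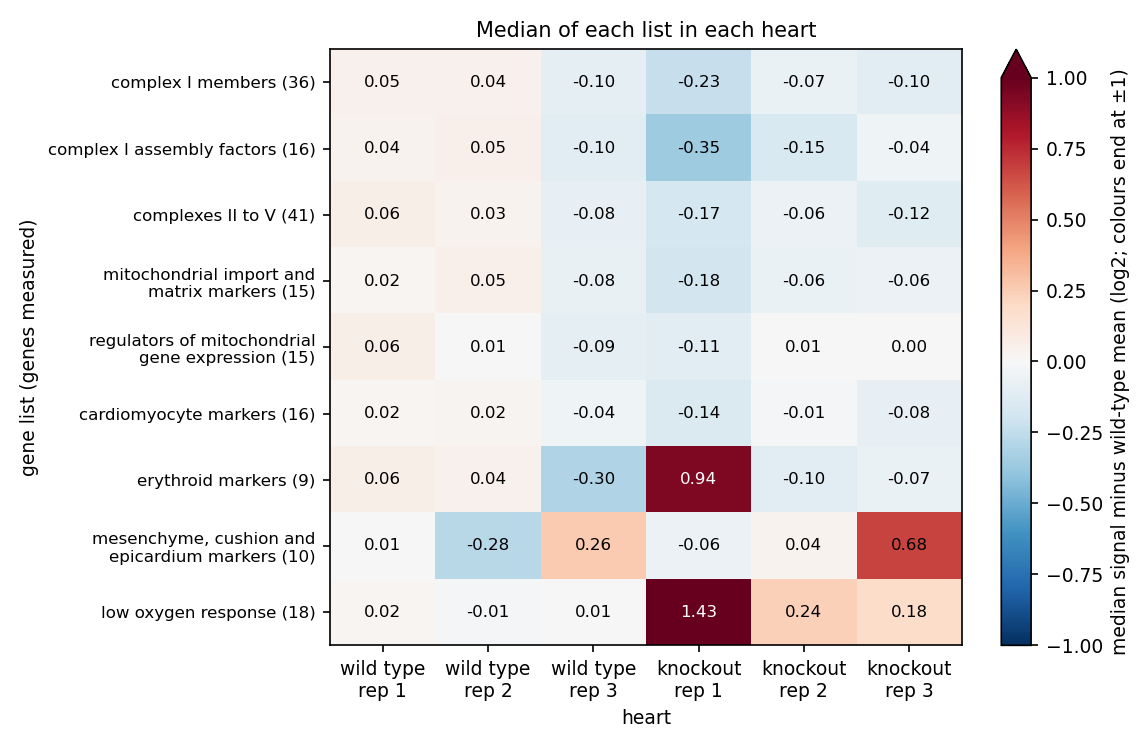
Median signal of each gene list in each heart minus the wild-type mean (colour and number, log2), with the number of genes measured in brackets. The 4 mitochondrial rows at the top are lowest in knockout replicate 1, where the erythroid (0.94) and low-oxygen (1.43) rows are highest, and are also below 0 in wild-type replicate 3.

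The promoters of the members were also searched for letters bound by known regulators of respiratory genes. RefSeq promoter windows of 300 bases (GRCm38.p6, 250 before to 50 after a start site) matched 32 of the 36 genes, in 34 windows; Ndufa2, Ndufa4l2, Ndufb9 and Ndufs1 had none. On both strands, the Nrf1 motif was in 20.6% of the member windows (6 genes) against 4.60% of all 32851 windows. A single Ndufa5 match lies in both of that gene's overlapping windows and is counted in each. The Yy1 letters AANATGGCG were in 20.6% of the member windows (7 genes) against 2.38%. The ETS letters CCGGAAGT of Gabpa were in 1 member window (2.94% against 3.89%) and the Esrra letters TNAAGGTCA in 0 (1.28% of all windows). Any of these motifs was found for 13 of the 32 member genes, and in 11.2% of all windows. Of 32 genes of complexes II to V with windows, 10 held the Nrf1, 3 the Yy1, 4 the Gabpa and 2 the Esrra letters. No motif overlapped another in a member window, and the Nrf1 letters in Ndufa11 read on both strands at 1 place.

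Stretches of the promoters with a match follow, read on the gene's strand from 5′ to 3′, with the matched letters in capitals. Ndufs6 is shown because its window held both Nrf1 and Yy1 letters (the Yy1 letters lie past the stretch given). Ndufa8 and Ndufs7 are shown because their hearts did not overlap, and Ndufs3 for the only Gabpa match. The windows of Ndufb10, Ndufv1, Ndufb7 and Ndufa10, whose hearts did not overlap either, held no match. The first 3 stretches run from 120 bases before to 30 after the start site, and for Ndufs7 30 bases around the match are given.
Ndufs6 (chr13:73328453-73328602, minus strand): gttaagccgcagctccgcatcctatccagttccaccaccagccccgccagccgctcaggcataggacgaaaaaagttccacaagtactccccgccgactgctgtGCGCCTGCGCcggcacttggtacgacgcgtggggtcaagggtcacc
Ndufa8 (chr2:36049309-36049458, minus strand): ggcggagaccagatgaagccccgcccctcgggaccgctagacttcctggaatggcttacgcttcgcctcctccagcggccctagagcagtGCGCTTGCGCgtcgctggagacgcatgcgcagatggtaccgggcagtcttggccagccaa
Ndufs3 (chr2:90904692-90904841, minus strand): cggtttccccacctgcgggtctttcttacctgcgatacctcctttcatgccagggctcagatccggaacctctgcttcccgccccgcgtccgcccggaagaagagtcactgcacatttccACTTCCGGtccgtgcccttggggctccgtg
Ndufs7 (chr10:80249463-80249492, plus strand): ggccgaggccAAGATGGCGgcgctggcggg

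The capitals mark GCGCCTGCGC in Ndufs6, which begins 16 bases before the start site, and GCGCTTGCGC in Ndufa8, which begins 30 bases before it, both reading Nrf1 on the opposite strand. In Ndufs3 they mark ACTTCCGG at the start site, the Gabpa letters on the opposite strand, and in Ndufs7 AAGATGGCG, the Yy1 letters, 24 bases after the start. The 7 Yy1 matches of the members were all on the gene's strand, and 5 of them began 22 to 35 bases after the start site. Of the Yy1 matches in all windows, 48.0% began after the start site, and their strands were not counted. Members with the Yy1 letters had a median difference of -0.15 (7 genes) and those without -0.12 (25 genes), while members with the Nrf1 letters had -0.09 (6 genes) and those without -0.15 (26 genes). A match is a description of these letters and does not show binding.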

How the data were processed

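RNA from 3 wild-type and 3 knockout hearts was read on 1 array each. The deposited log2 values were made by the authors with RMA, per the submitters' processing notes; for the RMA version, genome build and filters, nothing is stated (not given in the sources used here). A platform annotation gave 1 gene symbol to 21776 of 28767 clusters, several to 1618 and none to 5373; symbols were updated through Entrez identifiers (21686 matched, GRCm38.p6). A gene with several clusters is represented by its brightest one (mean of 6 arrays). In any list, that cluster may read a near-identical copy of the gene, since probe positions are not known here.

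The groups were compared with limma 3.58.1 in R 4.3.3 (lmFit, eBayes, no covariate, no filter) over all clusters, two-sided, with Benjamini-Hochberg adjustment and a threshold of 0.05, after the fit was tested on simulated data. The samples are described as biological replicates; whether each is 1 embryo is not stated, so p-values reflect only how these 6 samples vary. The members and gene lists were chosen with earlier results of these data known. Lists are described by counts and medians, without a test. 209 of 238 list entries were matched to a cluster. Values are printed in every heart for the core subunits, Ndufab1, Ndufa4, Ndufa4l2, the 10 other members of lowest p and the extremes, and up to 4 genes of each other list by lowest p; ND3, and the several-symbol clusters, are named beside them.

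Alternatives were a dim-cluster filter, 1 cluster per gene, the mean of a gene's clusters, quantile normalization again, cyclic loess, median centring, each heart left out, a replicate block, array weights and a robust variance trend.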

Additional observations from a re-analysis of the deposited data

How the results depend on the processing

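In each of the 18 alternatives, 3 of them chosen after seeing the data, the median difference of the complex I members stayed below 0 and 0 members passed limma's adjusted p. Leaving out each heart in turn gave 30 to 33 lower members and a median difference from -0.17 to -0.10. It also gave 8 to 25 members with no overlap on the lower side. In these sets of 5 hearts, the share with no overlap on that side ranged from 10.7% to 14.4% of all clusters (6.61% with all 6). Among clusters at or above the median level, where all members lie, it ranged from 10.4% to 19.7% (7.99% with all 6). Without knockout replicate 3, 8 members (22.2%) had no overlap, against 14.4% and 19.7%. With both wild-type replicate 3 and knockout replicate 1 left out, a choice made after seeing the data, 26 members had no overlap, against 19.0% of all clusters and 22.5% of those at or above the median level in the same 4 hearts. Without Ndufa4 and Ndufa4l2, also chosen afterwards, the median difference was -0.13, and with the dimmer of 2 clusters it was -0.15.

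Replicate numbers are shared between the groups, and the labels do not say whether they pair the hearts. The deviations of same-numbered hearts correlated at -0.04, -0.03 and -0.06, and those of differently numbered hearts at -0.03 to 0.08. Such values cannot show whether the hearts were paired. With the replicate block, the median difference was -0.12, 33 members were lower and 0 passed.

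27 of the 36 members kept their sign throughout, and 9 did not. With array weights, Ndufb3 stood at 0.040, Ndufa11 at 0.0396, Ndufb2 at 0.0423, Ndufv3 at -0.0455 and Ndufs5 at -0.0017, and with cyclic loess Ndufb3 stood at 0.0052. With 1 heart left out, Ndufa1 ranged from -0.0937 to 0.0212, Ndufa6 from -0.173 to 0.0248, Ndufb2 from -0.185 to 0.0702, Ndufb3 from -0.0582 to 0.0075, Ndufc1 from -0.20 to 0.0448, Ndufc2 from -0.124 to 0.0147, Ndufs5 from -0.0333 to 0.255, Ndufv3 from -0.0757 to 0.116, and the median of the regulators from -0.0788 to 0.0173. With both hearts left out, Ndufb3 was 0.031, Ndufb2 0.03, Ndufv3 -0.077, Ndufa1 -0.136 and Ndufa6 -0.205. The cause was not tested. Scanner files were not analysed, so signal over background is unknown.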
